A study of Mus musculus with 2 samples.

Results

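The miR-148 and miR-152 family of mouse consists of 3 microRNA genes, Mir148a, Mir148b and Mir152, of 1973 microRNA gene rows in the deposited tables. The genes were taken by name, through their Ensembl identifiers, because their main products share one seed and act on the messenger RNA of Dnmt1, the maintenance DNA methyltransferase. They were measured by small RNA sequencing of limb from embryos of the strain B6NCrl at embryonic day 12.5, an age at which cartilage condenses in the limb bud. The only group is limb of healthy embryos, male and female together, with no treatment or mutation given in the labels, and it has 2 biological replicates. Replicate 1 pooled the limbs of 88 embryos and replicate 2 those of 68 embryos, so no value belongs to a single embryo. The tissue is whole limb, so a lower share of cells that make a microRNA and less of it in each cell cannot be told apart. The design holds no second condition; it answers how strongly each gene was read in this tissue and how far the 2 pools differed.

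A microRNA is cut from a hairpin precursor, and one arm of the hairpin is loaded into an Argonaute protein, where it guides the repression of messenger RNAs. Bases 2 to 8 of the loaded arm, called the seed, pair with sites that lie mostly in 3' untranslated regions. The 3p arms of miR-148a, miR-148b and miR-152 are the guides of this family, and in human cells they were found to repress DNMT1, which copies methylation marks onto new DNA strands during replication. In human cells miR-148 was also reported to act on DNMT3B, a methyltransferase that sets new marks, through its coding sequence. miR-148a is known as an abundant microRNA of the adult liver and of B cells.

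The 3p guides are shown because the family is defined by them, with the seed in capitals (RefSeq, GRCm38.p6, read 5' to 3').
miR-148a-3p: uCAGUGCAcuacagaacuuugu
miR-148b-3p: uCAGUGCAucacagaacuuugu
miR-152-3p: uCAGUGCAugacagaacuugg
All 3 guides carry the seed CAGUGCA, and of 1738 mature microRNAs in the RefSeq table no other has these bases 2 to 8. Outside the seed they differ at few places. With positions counted from 1 at the 5' end, miR-148b-3p differs from miR-148a-3p by C9U and U10C, with 20 of 22 bases equal. miR-152-3p differs from miR-148a-3p by C9U, U10G and U20G over 21 bases, and from miR-148b-3p by C10G and U20G. The guides of Mir148a and Mir148b share an unbroken run of 12 bases, shorter than a mature microRNA.

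The opposite arms are shown because each count in the tables covers the whole hairpin, so both arms are counted together. Bases 2 to 8 are again in capitals.
miR-148a-5p: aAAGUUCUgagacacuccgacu
miR-148b-5p: gAAGUUCUguuauacacucaggcu
miR-152-5p: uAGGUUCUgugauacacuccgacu
The 5p arms of Mir148a and Mir148b share the seed AAGUUCU, which no other gene in the table has. The 5p arm of Mir152 differs from miR-148a-5p at position 3 (A3G), so its seed AGGUUCU stands alone in the table. Position by position without gaps, miR-148a-5p equals miR-148b-5p at 13 of 22 bases and miR-152-5p at 12, against 20 of 22 and 18 of 21 for the 3p arms. These 5p counts are low estimates where a gap puts later bases out of step, since miR-148a-5p has 22 bases and the others 24. The longest run that Mir148a shares with Mir152 is 11 bases in the 5p arms and 9 in the 3p arms. With Mir148b it is 8 and 12. Likeness with gaps allowed was not measured.

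The hairpins are given with both mature arms in capitals, since they show how much of each counted gene is arm and how the 3 precursors differ in length.
Mir148a: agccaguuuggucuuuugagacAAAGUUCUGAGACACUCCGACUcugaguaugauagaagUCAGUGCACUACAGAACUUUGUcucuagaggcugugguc
Mir148b: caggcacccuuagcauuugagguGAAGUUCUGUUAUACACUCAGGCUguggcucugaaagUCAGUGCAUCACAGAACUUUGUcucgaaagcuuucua
Mir152: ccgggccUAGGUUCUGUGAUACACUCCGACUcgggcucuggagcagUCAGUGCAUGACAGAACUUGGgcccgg
The hairpins of Mir148a and Mir148b are 99 and 97 bases long and hold 45.5% and 45.4% G or C. The hairpin of Mir152 is shorter, at 73 bases, and richer in G and C, at 61.6%. The longest stretch that Mir148a and Mir148b share is 15 bases, and no other hairpin among 2202 in GENCODE M21 shares a longer one with either. Mir152 shares at most 13 bases with any other hairpin, the longest with Mir3473f. The tables set reads that map to several places apart from the genes. No member shares a stretch of 20 bases or more, the length taken here as enough for mature reads to be lost in this way. Repeats outside annotated hairpins were not searched.

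The 3 genes lie on different chromosomes (mm10, the assembly also called GRCm38), and each lies near a Hox cluster, the gene clusters that pattern the limb and the body axis. Mir148a (ENSMUSG00000065505.1) is at chr6:51269812-51269910 on the minus strand and overlaps no other annotated gene. Its nearest protein-coding gene, Nfe2l3, is 163 kb away. Mir148b (ENSMUSG00000065560.1) is at chr15:103285125-103285221 on the plus strand, in intron 1 of all 4 annotated transcripts of Copz1. Mir152 (ENSMUSG00000065515.1) is at chr11:96850393-96850465 on the plus strand, in intron 1 of 3 of the 5 annotated transcripts of Copz2 and outside the other 2. Copz1 and Copz2 are paralogs that encode the zeta subunit of the COPI coat, which carries vesicles from the Golgi apparatus to the endoplasmic reticulum, and both hosts are read on the same strand as their microRNA.

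The neighbourhood is alike at the 3 loci. The nearest microRNA gene of a Hox cluster is Mir196b at 960.2 kb from Mir148a, Mir615 at 270.1 kb from Mir148b and Mir10a at 533 kb from Mir152. Between the family member and that gene each locus holds a gene of the Nfe2 family, which encodes bZIP transcription factors. These are Nfe2l3 beside Mir148a, Nfe2 at 26.7 kb from Mir148b and Nfe2l1 at 20.4 kb from Mir152. On the same side each locus holds a gene for a heterochromatin protein 1, Cbx3 at 200.5 kb from Mir148a, Cbx5 at 45.3 kb from Mir148b and Cbx1 at 41.8 kb from Mir152. The comparison of neighbours rests on the annotation alone and uses no count.

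**Figure D1:**
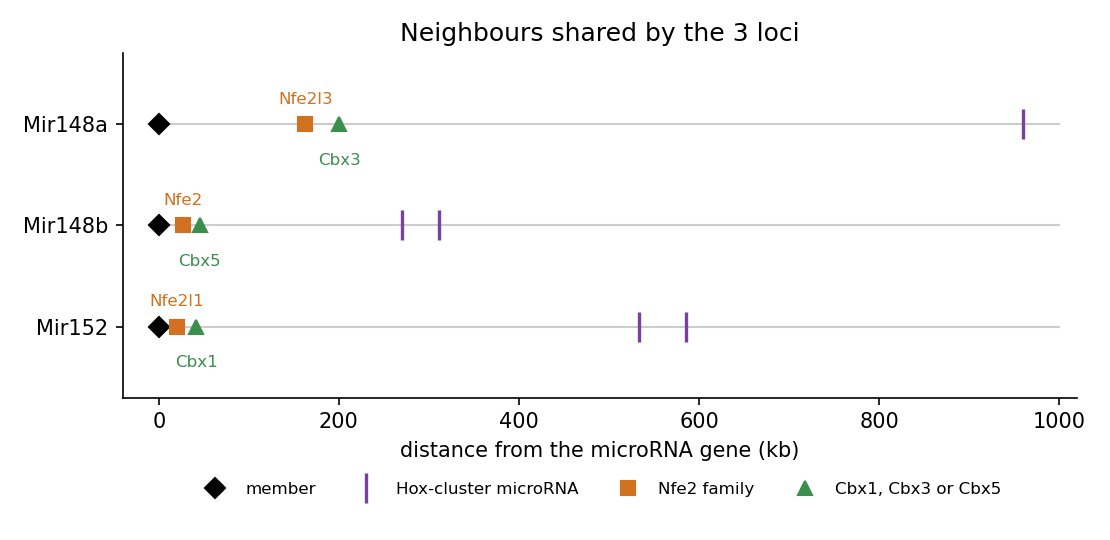
Distance in kb from each family member (black diamond) to the microRNA genes of the Hox cluster (purple ticks), the Nfe2 family gene (orange square) and the Cbx gene (green triangle) on the same chromosome, all on the same side of the microRNA. In each of the 3 rows the Nfe2 and Cbx genes lie between the family member and the Hox-cluster microRNAs, and Mir148a lies farthest out, with Mir196b at 960.2 kb.

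A match to the shared seed was present in the 3' untranslated region of mouse Dnmt1. The motif searched was TGCACTG, the reverse complement of bases 2 to 8 as DNA, on the strand of the transcript, in the longest annotated 3' untranslated region of each gene in GENCODE M21. In Dnmt1, whose region is 312 bases long, it was found once, starting at base 23 of the region. The site shown lies at chr9:20907491-20907512 on the minus strand and has the motif in capitals.
Dnmt1 site: cccagagccccacgTGCACTGa
The base after the motif is an A, which makes it a match of the longest class used for microRNA sites. Of 1890 regions of like length, from 0.8 to 1.25 times that of Dnmt1, 62 (3.28%) held the motif. In the longest regions of the other DNA methyltransferase genes, Dnmt3a with 6696 bases and Dnmt3b with 1331 bases, these letters did not occur, while 42.4% and 13.3% of regions of like length held them. Over all 21013 genes with such a region 2674 (12.7%) held the motif. A match of letters describes the sequence and measures neither binding nor repression, and no messenger RNA was measured.

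Mir148a was the most abundant member, Mir148b came next and Mir152 was lowest, in both pools. For Mir148a, replicate 1 gave 4033 counts and replicate 2 gave 3311, which is 891 and 919 CPM (counts per 1000000 counts on the gene's own strand over all microRNA genes). Its mean was 905 ± 19.4 CPM (SD, n = 2, as for all means below). Mir148b had 914 counts (202 CPM) in replicate 1 and 606 counts (168 CPM) in replicate 2, a mean of 185 ± 23.9 CPM. Mir152 had 436 counts (96.3 CPM) in replicate 1 and 301 counts (83.5 CPM) in replicate 2, a mean of 89.9 ± 9.1 CPM. The ranges of the 3 genes over the pools did not overlap. A count of 0 would have allowed up to 3 counts, or 0.663 CPM in replicate 1 and 0.832 CPM in replicate 2, so every member stood far above the floor.

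**Figure D2:**
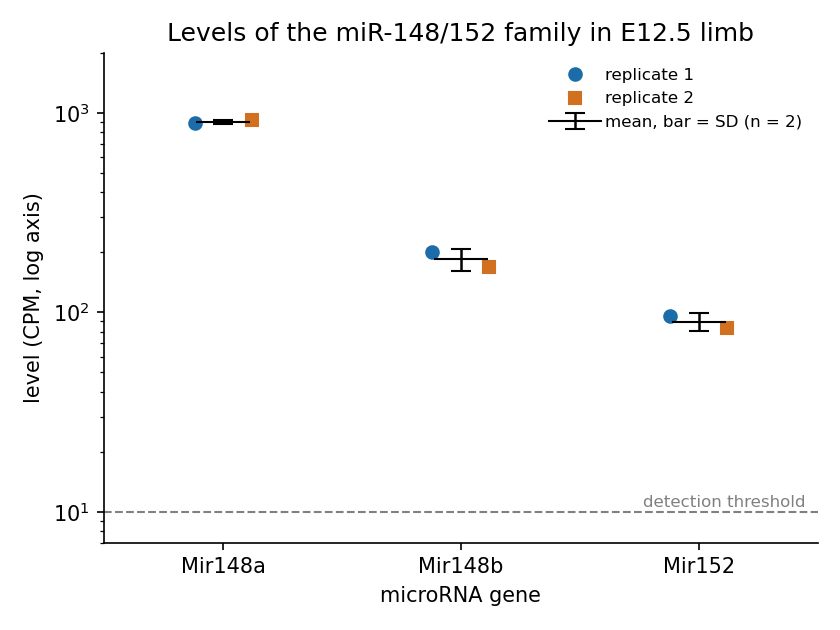
Level in CPM (log axis) of each family member in replicate 1 (blue circles) and replicate 2 (orange squares), with the mean and SD in black and the detection threshold of 10 CPM as a dashed line. Mir148a at 891 and 919 CPM stands above Mir148b at 202 and 168 CPM, and Mir152 at 96.3 and 83.5 CPM is lowest.

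In counts, Mir148a exceeded Mir148b by 4.41 times in replicate 1 (95% Clopper-Pearson interval 4.11 to 4.75) and by 5.46 times in replicate 2 (5.01 to 5.97). Mir148a exceeded Mir152 by 9.25 times in replicate 1 (8.38 to 10.2) and by 11.0 times in replicate 2 (9.77 to 12.4). Mir148b exceeded Mir152 by 2.10 times in replicate 1 (1.87 to 2.36) and by 2.01 times in replicate 2 (1.75 to 2.32). The order of the members is therefore the same in both pools and lies beyond counting error in each. For each of the 3 ratios the exact two-sided sign-flip test of the log2 ratio over the 2 libraries gave p = 0.5, the smallest it allows. Counting error, here and below, is that of reads taken as independent, and the intervals measure nothing else. PCR copies of 1 molecule are counted as separate reads, so the intervals can be too narrow for molecules. Per base of hairpin the ratio of Mir148a to Mir152 was 6.82 in replicate 1 and 8.11 in replicate 2, and that of Mir148b to Mir152 was 1.58 and 1.52. In CPM per 100 bases of hairpin the members stood at 914 for Mir148a, 191 for Mir148b and 123 for Mir152, in the same order. A microRNA read comes from 1 arm whatever the length of its hairpin, so the undivided counts are used below. How well each sequence is ligated and amplified was not measured, and levels of different genes compare reads, not molecules.

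Mir148a made up most of the family's reads. Its share of the family was 74.9% in replicate 1 (95% interval 73.7 to 76.1) and 78.5% in replicate 2 (77.2 to 79.7). Mir148b gave 17.0% in replicate 1 (16.0 to 18.0) and 14.4% in replicate 2 (13.3 to 15.5), and Mir152 gave 8.10% and 7.14%. The share of Mir148a was higher in replicate 2 beyond counting error, since the intervals do not meet, while those of Mir152 overlap. In sum the 3 genes had 5383 counts in replicate 1 and 4218 in replicate 2, which is 1189 and 1170 CPM, or 0.118% ± 0.0014 of all counts on microRNA genes. The family sum differed less between the pools, in proportion, than Mir148b and Mir152 did. The sum is mostly Mir148a, whose SD was 2.1% of its mean, against 12.9% for Mir148b and 10.1% for Mir152.

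All 3 members were detected, taken as 10 CPM or more in both libraries, a level that 14.5% of the 1973 rows reached. Mir148a ranked 101st by mean CPM, Mir148b 161st and Mir152 197th. Of the 286 detected genes 100 had a higher mean than Mir148a, 160 a higher mean than Mir148b and 196 a higher mean than Mir152. The median detected gene had a mean of 269 CPM, so Mir148a lay above it and Mir148b and Mir152 below it. In replicate 1 alone the members ranked 100th, 158th and 191st, and in replicate 2 they ranked 100th, 163rd and 200th.

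**Figure D3:**
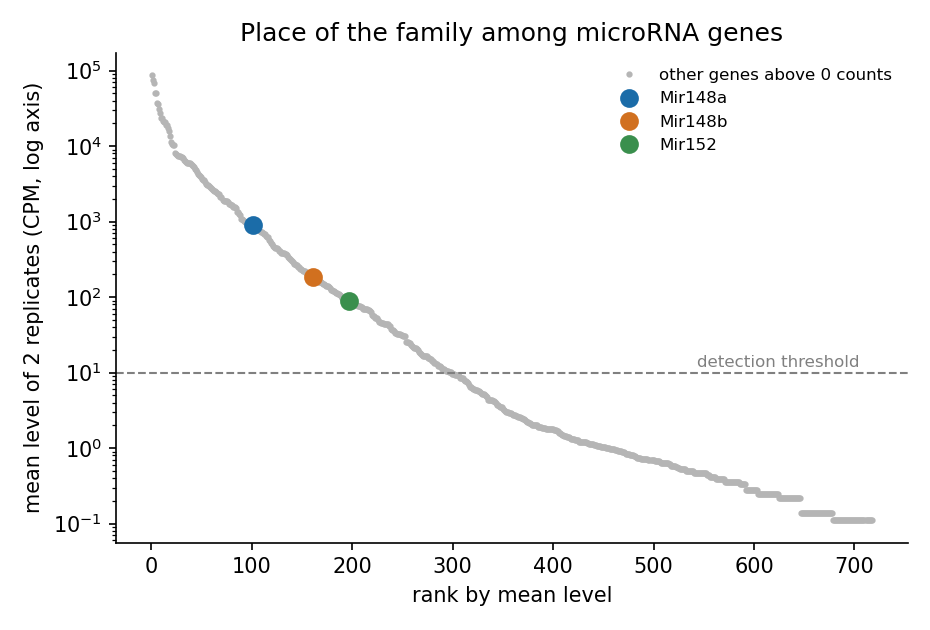
Mean level of the 2 replicates in CPM (log axis) against rank, for genes above 0 counts (grey), with Mir148a (blue), Mir148b (orange) and Mir152 (green). The family members lie at ranks 101, 161 and 197, all above the dashed detection threshold of 10 CPM.

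With 2 libraries of 1 group no gene has a pattern across conditions, so likeness was taken as the difference in mean CPM, and the gene next above and next below each member is named. Beside Mir148a stood Mir181a-2 (917 ± 357 CPM), which tunes T cell receptor signalling as part of the miR-181 family, and Mir96 (842 ± 104 CPM), a microRNA of sensory hair cells. Beside Mir148b stood Mir760 (188 ± 53.1 CPM) and Mir493 (183 ± 75.9 CPM), the second a gene of the imprinted Dlk1-Dio3 region. Beside Mir152 stood Mir3074-1 (90.4 ± 9.1 CPM), which overlaps Mir24-1 on the other strand, and Mir103-2 (89.2 ± 18.2 CPM), of the miR-103 and miR-107 family known for its role in insulin sensitivity. Mir181a-2, Mir3074-1 and Mir103-2 share 28, 30 and 27 bases with another hairpin, so their counts are uncertain. All 6 neighbours overlapped their member in the range over the 2 pools, so their order is not resolved. The range of Mir148a overlapped that of 9 genes, at ranks 95 to 109, that of Mir148b overlapped 15 genes at ranks 147 to 170, and that of Mir152 overlapped 16 genes at ranks 185 to 210.

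Between the pools Mir148b differed beyond counting error, and Mir148a and Mir152 did not pass the test. The log2 ratio of replicate 1 over replicate 2 was -0.04 for Mir148a (SE 0.034, counting error), 0.26 for Mir148b (SE 0.076) and 0.21 for Mir152 (SE 0.11). The two-sided exact binomial test, adjusted by Benjamini-Hochberg over the 436 genes whose counts summed to 10 or more, gave an adjusted p of 0.337 for Mir148a, 0.00146 for Mir148b and 0.124 for Mir152. This test sets 1 library against another and knows counting error only, and it called 41.7% of all genes tested, with 93 genes (21.3% of those tested) called higher in replicate 1. With 1 of 3 members called, the family stood near that background. Across the detected genes the log2 ratios had an SD of 0.34 and a median of 0.00, and all 3 members lay within 1 SD of that median. Of the 286 detected genes 247 had a larger absolute ratio than Mir148a, 108 a larger one than Mir148b and 131 a larger one than Mir152. Each pool is given here by 1 library, so whether the difference in Mir148b exceeds the spread between pools could not be measured apart from the difference itself.

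**Figure D4:**
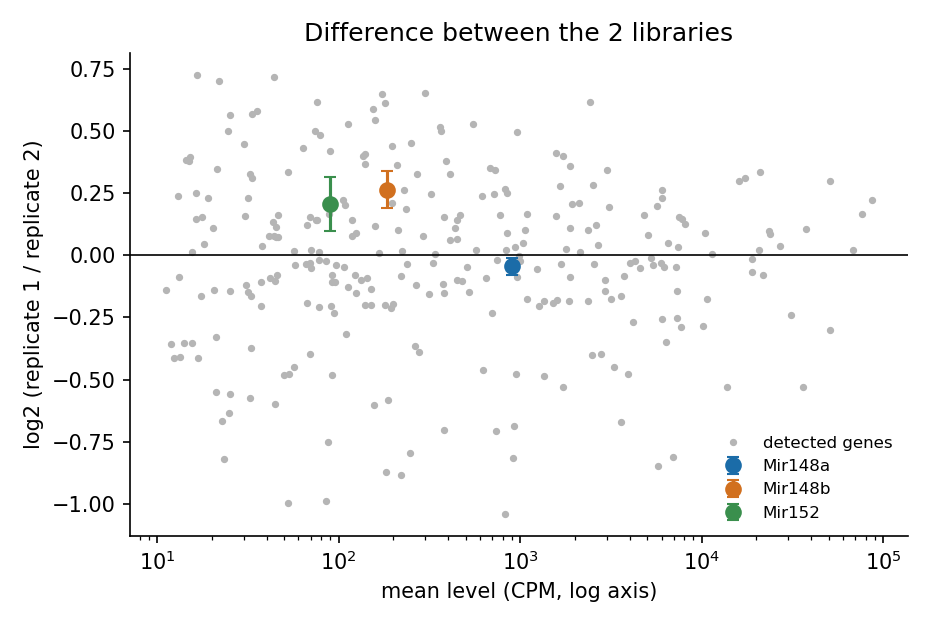
Log2 ratio of replicate 1 over replicate 2 against mean level in CPM (log axis) for the 286 detected genes (grey) and the 3 members, whose bars are standard errors from counting. Mir148a sits at -0.04, Mir148b at 0.26 and Mir152 at 0.21, inside the cloud of the other genes.

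The family was set beside other microRNA genes taken as acting on DNA methyltransferases, a few of which were far more abundant. A list of 10 further genes was used, with roles known mostly from human cells. Its members reported to act on DNMT1 are Mir126a, Mir342 and Mir185. Those reported to act on DNMT3A, and in the miR-29 family also on DNMT3B, are Mir143, Mir101a, Mir101b, Mir29a, Mir29b-1, Mir29b-2 and Mir29c. The family had 1179.9 ± 13.6 CPM in sum, against 33815 ± 1042 CPM for the list, which is 28.7 times as much (36.0 times per base of hairpin). The list's sum rests on Mir126a, Mir342, Mir143 and Mir101b, and each of its other 6 genes had a lower mean than Mir148b. By roles, the 3 list genes tied to DNMT1 had 26453 ± 1119 CPM and the 7 tied to DNMT3A or DNMT3B had 7362 ± 77.8 CPM. Of the 10 list genes 8 were detected, where 14.5% of all rows were. The median was 185 CPM over the 3 family members and 142 CPM over the 10 list genes, against 64.8 CPM for all 436 genes tested. The sets are unlike, since the list includes Mir29b-1 and Mir29b-2, whose counts summed to less than the 10 needed for testing.

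Among genes tied to DNMT1, Mir126a, a microRNA of endothelial cells, had 18526 CPM in replicate 1 and 19409 in replicate 2, and Mir342 had 6975 and 7715 CPM. Both stood above all 3 family members in each pool. Mir185 had 160.0 CPM in replicate 1 and 120.4 in replicate 2, between Mir148b and Mir152 in the mean of 140.2 ± 28.0 CPM. The values of Mir185 did not overlap those of either neighbour, with Mir148b at 202 and 168 CPM and Mir152 at 96.3 and 83.5 CPM.

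Among genes tied to the de novo enzymes, Mir143, a microRNA of smooth muscle, had 5241 CPM in replicate 1 and 5278 in replicate 2, and Mir101b had 1948 and 1804 CPM. Mir101a (139 and 148 CPM) lay between Mir148b and Mir152 in both pools. The miR-29 genes were lower, with Mir29c at 44.2 and 46.6 CPM and Mir29a at 42.4 and 28.3 CPM, all below Mir152. Replicate 1 gave 3 counts for Mir29b-1 and 3 for Mir29b-2, and replicate 2 gave 5 and 1. The hairpins of Mir29b-1, Mir29b-2, Mir29c, Mir101a and Mir101b share 20 bases or more with another gene, so reads common to 2 genes could not be assigned and these values are uncertain. In the binomial test between the pools 5 of the 8 list genes with 10 counts or more were called, where 41.7% of all genes tested were, with a median log2 ratio of -0.04, against 0.21 for the family and 0.01 over all genes tested.

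**Figure D5:**
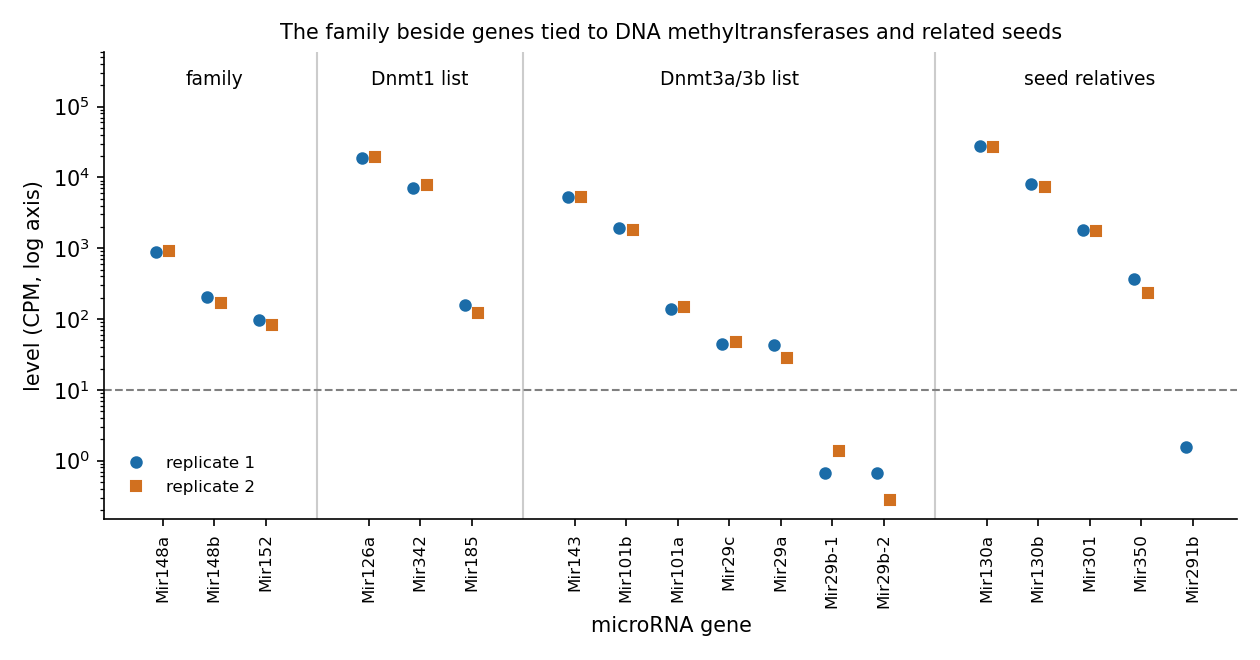
Level in CPM (log axis) in replicate 1 (blue circles) and replicate 2 (orange squares) of the family, of listed genes tied to Dnmt1 and to Dnmt3a or Dnmt3b, and of genes with a related seed; values of 0 are not drawn, and the dashed line is 10 CPM. Mir126a, Mir342, Mir143, Mir101b, Mir130a, Mir130b and Mir301 lie above Mir148a, and the miR-29 genes lie below Mir152.

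In the RefSeq table the mature microRNAs of 9 genes outside the family hold the 6 bases AGUGCA within bases 2 to 8, among them those of the miR-130 and miR-301 family, whose guides match the family's seed when shifted by 1 base. The guides of the 3 highest are shown with their own bases 2 to 8 in capitals.
miR-130a-3p: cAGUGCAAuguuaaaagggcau
miR-130b-3p: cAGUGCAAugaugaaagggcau
miR-301a-3p: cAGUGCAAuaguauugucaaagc
The seed of these guides is AGUGCAA, which is not the seed CAGUGCA of miR-148a, miR-148b and miR-152, so they are classed as another family. Mir130a had 27467 CPM in replicate 1 and 26793 in replicate 2, Mir130b had 8139 and 7354 CPM, and Mir301 had 1809 and 1775 CPM. Each of these was above Mir148a in both pools, and together they had 31.1 times the CPM of the miR-148 and miR-152 family (43.9 times per base of hairpin). Mir301b, of the same family by name, had 167 and 166 CPM, below Mir148a in both pools. The search of the RefSeq table did not return it among the 9, which does not show that its seed differs. Mir350, whose 5p arm holds the 6 bases at the same place as the family, had 363 and 231 CPM. Mir291b, which shares 20 bases with Mir291a, had 7 counts in replicate 1 and 0 in replicate 2, Mir130c, Mir6341 and Mir6389 had 0 counts in both, and Mir721 has no row. Of the 8 genes with a row, 3 were thus more abundant than Mir148a and 5 less abundant.

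The order of the members was set beside the microRNAs inside the Hox cluster near each of them. On chromosome 6, Mir148a at 905 ± 19.4 CPM lies 960.2 kb from Mir196b at 86831 ± 9376 CPM, the highest gene of the tables. On chromosome 15, Mir148b at 185 ± 23.9 CPM lies 270.1 kb from Mir615 at 3302 ± 722 CPM and 312 kb from Mir196a-2 at 1678 ± 27.6 CPM. On chromosome 11, Mir152 at 89.9 ± 9.1 CPM lies 533 kb from Mir10a at 7497 ± 559 CPM and 585 kb from Mir196a-1 at 31.4 ± 2.3 CPM. Mir196a-1 and Mir196a-2 share 22 bases with each other, so their counts are uncertain. Mir152 was above Mir196a-1 in both pools. The other Hox-cluster genes named stood above their neighbour of the family. These 3 loci are too few for a correlation.

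The label of the tissue was set beside marker microRNAs. These lists were chosen with earlier results of these data known, so the levels describe the libraries and do not test the label. All 8 markers of limb tissues were detected, from Mir206 of skeletal muscle at 2347 ± 213 CPM to Mir196b. They included Mir140 of cartilage, Mir214 of mesenchyme and Mir205 and Mir203 of the ectoderm. Mir206 alone stood for skeletal muscle on that list. Muscle genes outside it were far lower, with mean levels of 45.1 CPM for Mir133b and 25.2 CPM for Mir499. Mir1b, at 2.8 CPM, and Mir1a-1, at 1.2 CPM, were not detected. Whether bases shared with other hairpins lowered these counts was not tested. Of 10 markers of other tissues 3 were detected, where 14.5% of all rows were. The 10 had a summed level of 1676 CPM in replicate 1 and 1953 in replicate 2, most of it from Mir375 of endocrine cells at 1511 ± 143 CPM. Mir122 of the liver, a tissue rich in miR-148a, stood at 15.0 ± 2.8 CPM, and Mir217, Mir216a and Mir216b of the exocrine pancreas at 5.9, 1.1 and 1.3 CPM. Of white blood cell genes, Mir223 stood at 275 ± 52.0 CPM and Mir150 of lymphocytes at 4.3 ± 1.7 CPM. The 3 neural Mir124a genes had 0 counts, but they share 32 bases with one another, so their reads could not be assigned and the zeros say nothing about neural cells. The part of these cell types in the level of Mir148a was not tested. The libraries held 4525636 counts on microRNA genes in replicate 1 and 3604284 in replicate 2.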

How the data were processed

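Small RNA (under 30 bases, per the labels) from 2 pools of limb was sequenced. The deposited tables hold read counts per microRNA gene, made by the authors on mm10 with GENCODE M4, per the README files. For the aligner, counter, trimming and strand protocol, the sources used here give nothing. The first count column equalled the sum of the other columns in every row and was read as both strands. The next, read as the gene's own strand, was used. Rows that name no gene held 57.5% of all reads in replicate 1 and 63.0% in replicate 2 and were left out of totals. Among them, reads that mapped to several places made up 27.2% of all reads in replicate 1 and 23.7% in replicate 2. Symbols came from GENCODE M21 by identifier without version (1894 of 1973 rows matched), and sequences from RefSeq.

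CPM were computed over own-strand counts and are given as mean ± SD. Genes whose counts summed to 10 or more were compared between the libraries by a two-sided exact binomial test across all genes (scipy 1.17.1) with Benjamini-Hochberg adjustment at 0.05. Alternatives used edgeR 4.0.16 and DESeq2 1.42.0 size factors (R 4.3.3), other filters, both strands, other totals and single replicates. For log2 ratios 0.5 counts were added. The binomial test was checked on simulated counts that held counting error alone. The edgeR negative binomial test took its dispersion from the same 2 libraries. In simulated counts with many genes changed by large folds, which raise that dispersion, it recovered none of them. That setting is unlike these libraries, and the test is given only as an alternative. P-values measure the difference between these 2 libraries only. The members and lists were chosen with earlier results of these data known. Genes named are the members, the fixed lists, genes with a related seed, the neighbours in level by 1 rank, and annotated neighbours. Muscle genes outside the lists were added beside Mir206 after their levels were seen. The Nfe2 and Cbx genes were picked after the annotation was seen.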

Additional observations from a re-analysis of the deposited data

How the results depend on the processing

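The order Mir148a, Mir148b, Mir152 held per base of hairpin. Other totals and size factors scale all genes of a library alike, so they could not change it. Counting both strands adds only 2 counts, to Mir152 in replicate 1, and single replicates repeat the order given above. Per 1000000 of all reads in the tables, in place of counts on genes, the levels were 359 for Mir148a, 74.0 for Mir148b, 35.9 for Mir152 and 469 for the family, by the larger total. Counting both strands gave 882 CPM for Mir148a and 1151 for the family, since the total grows and the members' own counts hardly do. Per 100 bases of hairpin, Mir152 stood at 123, the family at 1228, and the ratios to Mir152 were 7.47 for Mir148a and 1.55 for Mir148b. The listed genes without those that share 20 bases or more held 31748 CPM. With edgeR's negative binomial exact test, the adjusted p of Mir148b was 1, against 0.00098 to 0.0032 under the other alternatives, and the number of genes called was 0 (25 at an unadjusted p under 0.05), against 174 to 186. That test takes its dispersion from the same 2 libraries, so it sets Mir148b against the spread of all genes between them. Against that spread the difference in Mir148b did not stand out (unadjusted p = 0.476, edgeR exact test). The spread between pools was not measured apart from these libraries. In all, 13 values moved or lost their call, and the other 50 did not. A level or ratio counted as moved when it differed from the mean by more than the SD over the replicates. A single replicate of 2 always lies within that SD, so those values among the 50 could not move. Leaving out a replicate gave 891 to 919 CPM for Mir148a, 168 to 202 for Mir148b, 83.5 to 96.3 for Mir152 and 1170 to 1189 for the family. No paired analysis was possible because there is only 1 group. Depth limits Mir152 most, with 301 counts in replicate 2.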
